A study of Mus musculus with 16 samples.

Results

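The 85 amplicons described here, of 663 on the panel, gave reads in a larger share of lung endothelial cells than of any blood or bone marrow library. They were chosen by one rule on measured values. The share of cells with at least 1 read in the lung endothelial library had to lie at least 20 percentage points above the highest share among the other 15 libraries. By the design of the assay an amplicon is covered in a cell where its CpG is methylated, so this share is used as the methylation level of a library. Stray reads at unmethylated sites and missed reads at methylated sites were not separated from it. Because the members were selected on it, the difference between endothelium and the other libraries is given as a description with no test.

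The 16 libraries held 95930 mouse cells in all and were made by scTAM-seq on Tapestri (Mission Bio), a single-cell assay of DNA methylation. A restriction enzyme that spares methylated sites digests the DNA of each cell, and a fixed panel of targets is then amplified. In LARRY experiments cells carry lentiviral barcodes that mark the descendants of single cells. LARRY bone marrow came from 4 mice of a main and 2 mice of a replicate experiment. Mature LARRY cells gave 1 library of lung myeloid cells, 1 of myeloid cells from bone marrow and peripheral blood, and 1 of immune cells from bone marrow and spleen, and LARRY endothelial cells of the lung gave 1 library. Bone marrow without such barcodes gave 1 native library, 2 young and 2 old libraries, and a transplantation experiment gave 1 bone marrow library. The labels give no strain, sex, age beyond young and old, donor or host of the transplant, or sort gate, and the cell type field reads immune cells for the endothelial library too.

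Methylation of CpG sites is copied by maintenance enzymes when cells divide, so a pattern set in one lineage is passed to its descendants. Endothelial cells line blood vessels, and the first blood stem cells of the embryo arise from a specialised endothelium. In the adult, stem cells and endothelial cells share several surface proteins. Among them are ESAM (a junctional adhesion molecule), CD201 (the endothelial protein C receptor) and Sca-1. The amplicons are known by panel identifiers only, and their genes, positions and sequences were not used here.

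Libraries held from 3385 to 10059 cells with a median of 14693 to 89971 reads per cell. The lung endothelial library had 6362 cells with a median of 28223.5 reads. Constitutive amplicons, 77 in number and covered in 90% or more of the cells in each library, were read in 97.2 to 99.0% of cells on average. Pairs of libraries shared from 5 to 40 cell barcodes, and the endothelial and lung myeloid libraries shared 19. In the endothelial library the median was 14 UMI of CD31 and 65 UMI of Sca-1. CD31 was taken with the sample title as the guide to endothelium, and does not settle the cell type alone. CD31 was counted in 93.0% of its cells. CD11b and CD3 were counted in at most 0.0314% of these cells, Ly-6C in 0.676% and Podoplanin in 75.1%. Counts of these tags in other libraries are not given here, so the low counts give no check of the tags. The protein table attached to the lung myeloid library was identical to that of the endothelial library and held 1398 of the 5855 lung myeloid barcodes, so no protein values are given for lung myeloid cells.

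Across members the endothelial share had a median of 93.9% and ran from 32.3% to 99.8%, with 50 of 85 at 90% or more. Their mean share over the 12 marrow libraries had a median of 29.5%. The gap was at least 50 points at 27 members, at least 40 points at 47 and at least 30 points at 63. Only 5 members stayed under 20% in every other library, and 51 stayed under 50%. A further 90 amplicons formed the mirror image, at least 20 points lower in endothelium than in every other library. The colour map of shares shows the endothelial column set against the other libraries, and also how far these differ among themselves.

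**Figure D1:**
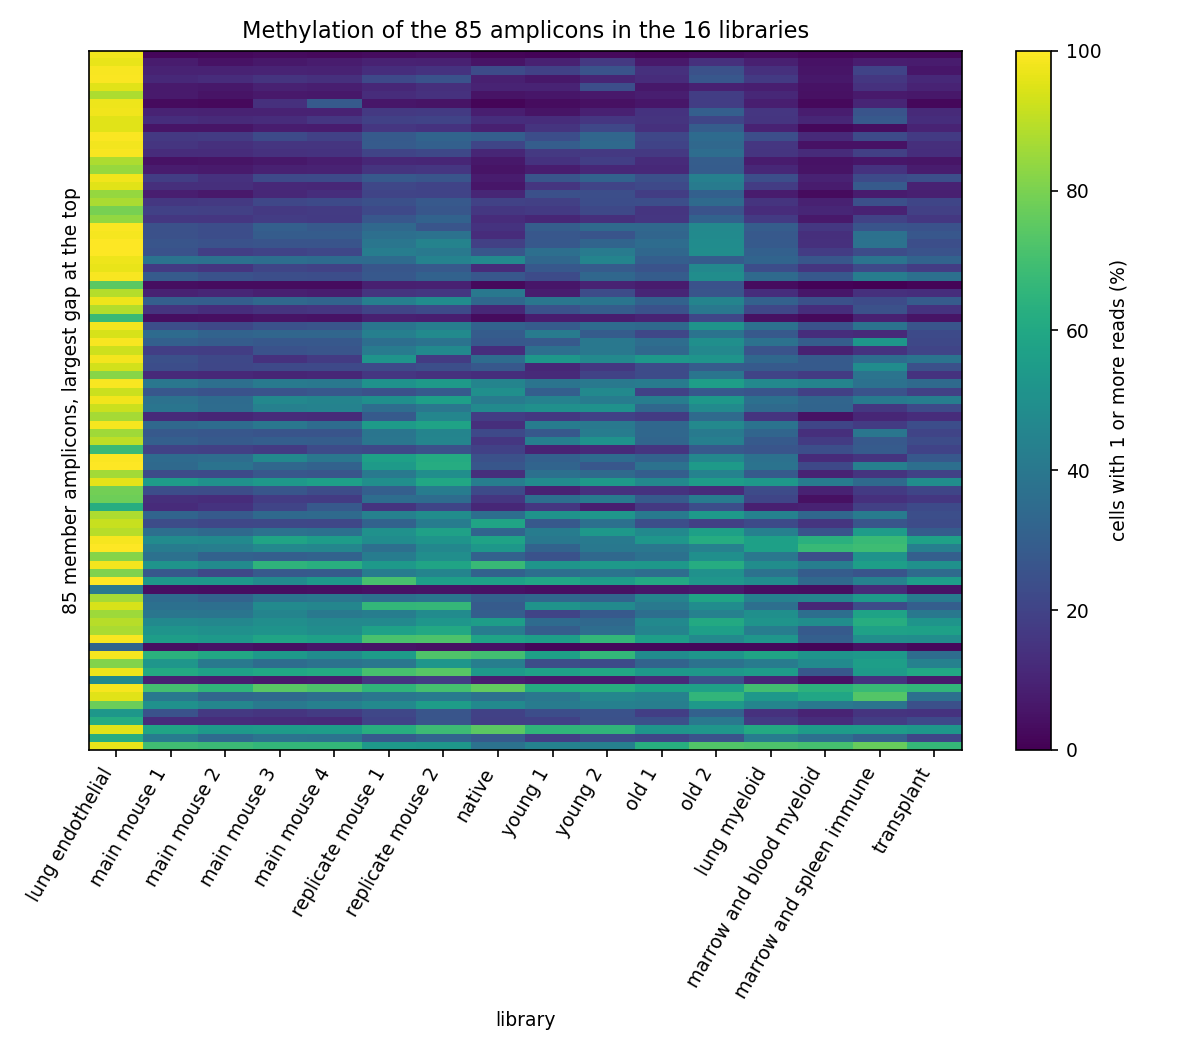
Share of cells with 1 or more reads (colour, percent) at each of the 85 members (rows, largest gap at the top) in the 16 libraries (columns). The endothelial column ran from 32.3% to 99.8%, and old 2 and replicate mouse 2 were the highest of the other libraries at 31 and 22 members.

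AMPL388255 stood apart from all other members. It had reads in 97.8% of endothelial cells (95% exact binomial interval 97.4 to 98.2, counting error only). Its share was 1.68, 2.08, 2.96 and 2.69% in main mice 1 to 4, and 3.20 and 4.11% in replicate mice 1 and 2. Native marrow had 1.48%, young 1 and 2 had 0.912 and 2.64%, and old 1 and 2 had 1.49 and 2.34%. All 12 marrow libraries thus lay within 3.20 points of each other, and the transplant, at 2.28%, was inside that range. Lung myeloid cells, from the same organ as the endothelium, had 2.97%, and the other mature libraries had 1.70 and 2.32%. With at least 10 reads required, the endothelial share was 80.01% and the highest other share 2.65%.

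AMPL376554 followed, at 96.7% in endothelium and from 4.72% in main mouse 2 to 16.6% in young 2 among the others. AMPL371655 was at 99.1% in endothelium and highest in young 2 (25.7%) and old 2 (24.7%). AMPL388671 reached 99.6% in endothelium, with old 2 at 27.0% and young 1 at 6.25%. Native marrow libraries set the ceiling at these 3 members. AMPL365898 was at 95.3% in endothelium, where the next library was young 2 at 23.9%. AMPL355730 was at 87.6%, with old 2 next at 18.2%. The panels of the 6 members with the largest gap show every library.

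**Figure D2:**
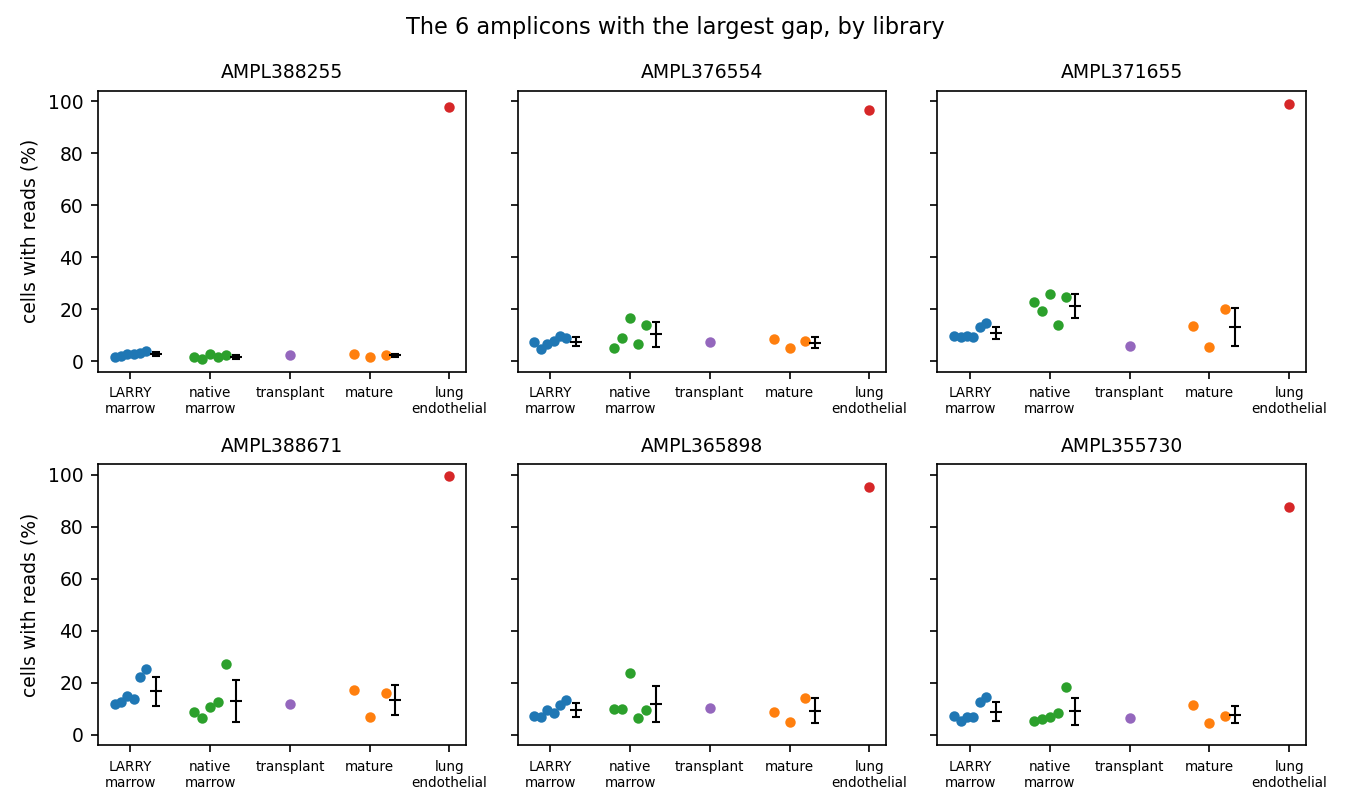
Share of cells with reads (percent) in each library at the 6 members with the largest gap; points are libraries, black marks the mean and SD over the libraries of a set with more than 1. AMPL388255 was at 97.8% in endothelium and at most 4.11% elsewhere.

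The other members with a gap of at least 50 points were AMPL388807 at 97.6% of endothelial cells, AMPL371788 at 97.97%, AMPL355903 at 95.6%, AMPL388203 at 95.5%, AMPL376689 at 99.3%, AMPL377076 at 98.2%, AMPL371758 at 99.1%, AMPL365920 at 87.6%, AMPL366045 at 84.4%, AMPL366028 at 97.8%, AMPL366093 at 95.6%, AMPL366241 at 84.1%, AMPL388678 at 87.3%, AMPL371416 at 79.5%, AMPL371580 at 83.9%, AMPL376517 at 99.6%, AMPL371618 at 98.8%, AMPL371668 at 99.7%, AMPL376447 at 99.6%, AMPL365861 at 97.3% and AMPL355412 at 96.8%. Those with a gap of 40 to 50 points were AMPL371378 at 99.1%, AMPL355767 at 74.8%, AMPL371357 at 88.7%, AMPL376601 at 97.5%, AMPL371701 at 88.4%, AMPL371288 at 68.0%, AMPL371170 at 98.2%, AMPL371312 at 93.9%, AMPL365905 at 99.0%, AMPL371197 at 92.5%, AMPL365818 at 98.2%, AMPL376711 at 93.2%, AMPL371688 at 82.2%, AMPL366102 at 99.2%, AMPL388466 at 92.1%, AMPL376910 at 97.8%, AMPL388383 at 92.1%, AMPL355663 at 86.6%, AMPL366081 at 98.8% and AMPL365828 at 85.7%. Both groups were read in most endothelial cells.

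A gap of 30 to 40 points was found at AMPL377123 (90.1%), AMPL371805 (67.7%), AMPL366060 (99.6%), AMPL371188 (99.8%), AMPL365795 (86.3%), AMPL371541 (96.0%), AMPL388409 (78.6%), AMPL371741 (78.1%), AMPL371460 (62.4%), AMPL365733 (87.8%), AMPL355889 (91.7%), AMPL371743 (89.2%), AMPL376642 (98.6%), AMPL371552 (99.7%), AMPL371720 (81.9%) and AMPL388196 (98.1%). The smallest gaps were those of AMPL366056 (80.6%), AMPL366193 (99.7%), AMPL388738 (40.6%), AMPL371353 (86.6%), AMPL388770 (93.8%), AMPL365938 (85.2%), AMPL371214 (89.2%), AMPL366000 (87.3%), AMPL371729 (99.0%), AMPL355742 (32.3%), AMPL388299 (98.6%), AMPL371446 (81.5%), AMPL388576 (97.6%), AMPL371245 (47.6%), AMPL388551 (98.6%), AMPL365943 (95.4%), AMPL355639 (77.6%), AMPL388574 (52.8%), AMPL376635 (62.1%), AMPL371732 (95.6%) and AMPL355970 (96.7%). Some of these gaps rested on cells with few reads. With at least 10 reads required, AMPL371460 was at 2.67% in endothelium and at 6.94% in the highest other library. AMPL371446, AMPL355639, AMPL388574 and AMPL376635 were then also lower in endothelium than in the highest other library. At this limit 65 of the 85 members still met the rule. AMPL355970 was just inside the rule, with a gap of 20.1 points. AMPL376318, with 99.4% in endothelium and 79.7% in native marrow, and AMPL388822, with 22.5% and at most 2.94%, fell just outside with gaps of 19.7 and 19.5 points.

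Members differed widely in their marrow level. AMPL388255 had the lowest mean over the 12 marrow libraries, 2.32% ± 0.877 (SD, n = 12). AMPL355742 was next at 3.81% ± 1.58, and its endothelial share of 32.3% was the lowest of all members. AMPL388551 was the highest at 66.6% ± 6.14, followed by AMPL388576 at 60.1% ± 6.51. The range over the 12 marrow libraries had a median of 25.1 points and ran from 3.20 to 44.6. The median SD over these libraries was 7.78 points at members and 6.09 at other amplicons that were not constitutive. Among the 4 main mice the median range was 4.46 points, and 9 members spread over more than 10 points.

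The widest spread among main mice was at AMPL388807, with 2.84, 2.40, 13.7 and 28.5% in mice 1 to 4. Mice 3 and 4 were high and mice 1 and 2 low. AMPL388807 had 5.95 and 5.39% in replicate mice 1 and 2, and 18.1% in old 2. AMPL365818 was at 51.6% in replicate mouse 1 against 17.3% in replicate mouse 2, and at 14.4 to 24.2% in the main mice. The young and old libraries held 47.2 to 53.4% at this member, so replicate mouse 1 lay among them.

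Most members were read in most endothelial cells, which follows in part from the rule, as members were chosen by their share in this library. A median of 76 of 85 members was read per endothelial cell, with 90% of cells between 68 and 82. In the other 15 libraries the median ran from 16 in marrow and blood myeloid cells to 28 in replicate mouse 2. Of endothelial cells, 99.5% (95% exact binomial interval 99.3 to 99.7) had at least 55 members read, and 29 cells did not. With at least 5 reads required per member that share was 95.4%. The 29 cells had a median of 63 of the 90 mirror amplicons, 1 UMI of CD31 and 3 UMI of Sca-1, while the other endothelial cells had 19, 14 and 65. AMPL388255 was read in 17.2% of the 29 cells. Both sets had similar depth, with medians of 29093 and 28222 reads.

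**Figure D3:**
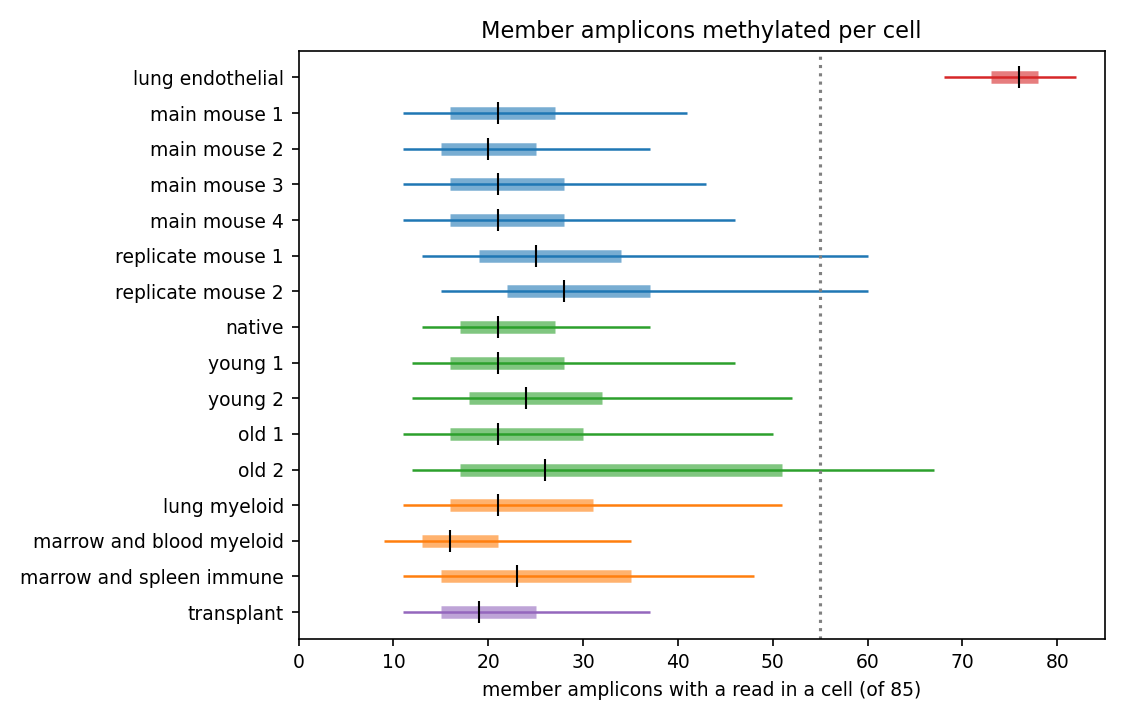
Number of the 85 members with a read per cell in each library (black tick the median, thick bar the 25th to 75th, thin line the 5th to 95th percentile of cells; colours mark the library sets, the dotted line 55 members). Endothelial cells centre on 76, all other libraries on 16 to 28, and old 2 reaches 51 at its 75th percentile.

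Members were weakly correlated with each other within endothelium, and more than the panel. Over the 61 members read in under 98% of endothelial cells, the median phi correlation between pairs was 0.0378, and 21 of 1830 pairs (1.15%) reached 0.2, against a median of 0.0192 and 0.457% of pairs over all amplicons read in 2 to 98% of these cells. The strongest pairs all involved AMPL388466 or AMPL365938. AMPL365938 and AMPL388466 had a phi of 0.416 in endothelium and from -0.00115 to 0.141 in the other libraries. AMPL371720 and AMPL388466 had 0.398 against 0.00190 to 0.183. AMPL365938 and AMPL371720, in contrast, had 0.339 in endothelium and 0.194 to 0.382 elsewhere. These are descriptions of cells that share 1 library, amplification and depth. The 29 cells with under 55 members, low at members and high at mirror amplicons, were kept in these correlations. Their part in the difference between members and panel was not tested. Partial correlations with CD31 ran from -0.0657 to 0.103 over 56 members in the 2933 endothelial cells with at least 100 UMI, with a median of 0.0106, and the median over all 494 amplicons was -0.00102.

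In bone marrow, most members were methylated more often in cells with more ESAM and less CD48 on their surface. Protein counts that matched their cells came with 4 libraries of bone marrow: native, replicate mouse 1, and mice 3 and 4 of the main experiment. Native measured only 4 proteins (c-Kit, Sca-1, CD48 and CD150), and the others 19 or 20. Each protein was centred on the mean log count of its cell, in native over these 4 alone, so there a rise in 1 lowers the others. Blood stem cells carry ESAM, CD150, a SLAM receptor, Sca-1 and CD201, and lack CD48, which appears as progenitors differentiate. For each amplicon, the partial correlation r between a read and the rank of a protein was computed within each library, given reads per cell and constitutive detection, and the mean over libraries was tested with limma over 10630 pairs of amplicon and protein. The rule for members used library means only and not the variation among cells.

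ESAM rose with methylation at 76 of 85 members and fell at none (adjusted p under 0.05, limma), and no member passed an unadjusted p under 0.05 in the negative direction. Of all 558 amplicons tested, 24% were positive. The median r was 0.141 over members and 0.00663 over all amplicons, in the 3 libraries that measured ESAM. With any 1 of these 3 left out, ESAM was positive at 61 to 77 members and negative at none, a check chosen after the data were seen. CD48 went the other way, with 64 of 85 members negative and none positive, none positive at an unadjusted p under 0.05 either, against 20.2% of all 565 amplicons negative. The median r with CD48 was -0.151 over members and -0.00858 over all. All 64 of these members were also positive with ESAM.

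CD150 was positive at 45 of 85 members and negative at none (all amplicons 14% positive), and Sca-1 at 51, with 2 negative (all amplicons 22.1% positive). CD201 was positive at 20 and negative at 2 (all amplicons 5.73% positive), but at 64 with total protein as a covariate, at 4 with no minimum of UMI, at 2 without main mouse 3 and at 6 without main mouse 4. CD27, a receptor of multipotent progenitors and lymphocytes, was negative at 51 and positive at 3 (all amplicons 16.7% negative). The stem cell factor receptor c-Kit was negative at 50 and positive at 2 (all amplicons 24.2% negative). For c-Kit 26 members were negative and 9 positive, and for CD27 29 and 8, when total protein entered as a covariate in place of the centred ratio. Without main mouse 3 CD48 was negative at 24 members, CD150 positive at 9, Sca-1 positive at 17 and c-Kit negative at 12, and without main mouse 4 at 32, 21, 21 and 18. Leaving out replicate mouse 1 left c-Kit negative at 32. CD27 was negative at 23 without main mouse 3 and at 28 without main mouse 4. With no minimum of UMI, CD150 was positive at 27 and c-Kit negative at 25.

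**Figure D4:**
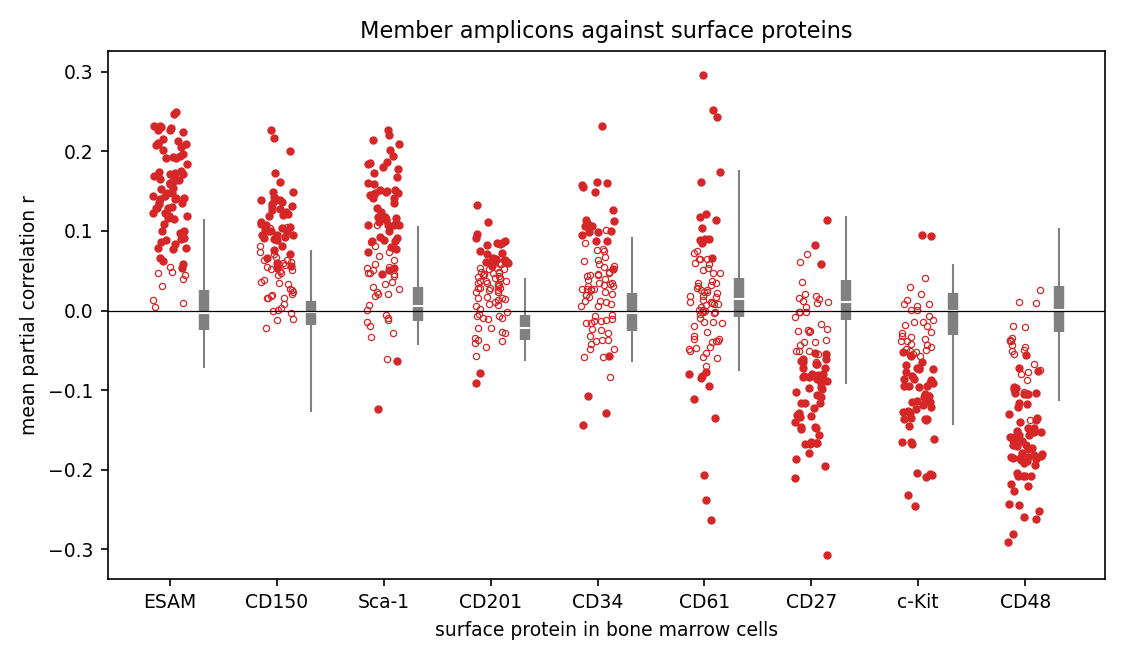
Mean partial correlation r over libraries between methylation of each member (red points; filled where adjusted p was under 0.05 by limma) and 9 surface proteins, beside the other amplicons tested (grey, bar the 25th to 75th and line the 5th to 95th percentile, white mark the median). With ESAM 76 members were positive, and with CD48 64 were negative.

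Single members varied in which protein they followed. AMPL365938 had the strongest negative r of any member and protein, with CD27, at -0.321, -0.306 and -0.293 in main mice 3 and 4 and replicate mouse 1 (adjusted p = 0.000525, limma). AMPL355412 and CD48 had -0.293, -0.241, -0.423 and -0.193 in main mice 3 and 4, replicate mouse 1 and native (adjusted p = 0.00227, limma). The strongest positive values were with CD61, an integrin chain of platelets and myeloid cells. AMPL371552 had r = 0.303, 0.328 and 0.256 in the same order (adjusted p = 0.000994, limma) and AMPL371353 had 0.196, 0.225 and 0.330 (adjusted p = 0.00230, limma). CD61 was positive at 14 members and negative at 10, where 16.8% of all 558 amplicons were positive and 6.63% negative.

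Other pairs, chosen after their values were seen, were AMPL388203 with ESAM (mean r = 0.250), AMPL371668 with CD150 (0.227), AMPL371741 with Sca-1 (0.227), AMPL365943 with c-Kit (-0.246) and AMPL371729 with CD61 (-0.264). The 9 members not called with ESAM had mean r from 0.00465 at AMPL371732 to 0.0549 at AMPL371541.

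Shares of cells were compared along a protein score. Cells with at least 100 UMI were ranked by Sca-1 plus CD150 minus CD48, and the highest 5%, called high-score cells, were set against the rest, by a score built from proteins of the test above and so no independent support. Members read per cell averaged 53.8 in the 156 highest and 28.3 in the other cells of replicate mouse 1, 40.3 and 24.8 in main mouse 3, and 42.0 and 24.9 in main mouse 4. In native marrow they averaged 27.3 and 23.1. There the highest cells had a median of 276 UMI of CD48 against 143.5 in the others, and more than 2 times the total UMI (528 against 180), so in native marrow the score did not select CD48-low cells. After thinning each cell to 10000 reads the averages were 46.4 and 21.8 in replicate mouse 1, 34.2 and 20.2 in main mouse 3, 36.4 and 21.2 in main mouse 4, and 21.8 and 17.2 in native. Mirror amplicons did not share the direction, with 62.7 and 70.4 of 90 in replicate mouse 1.

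AMPL355412 was read in 92.9% of the high-score cells of replicate mouse 1 and in 25.5% of the others. In main mouse 3 these were 65.9 and 22.0%, in main mouse 4 55.9 and 21.5%, and in native 22.1 and 10.3%. AMPL366093 was read in 91.7 and 20.3% in replicate mouse 1. In the 3 LARRY libraries, 72 of 85 members were higher in the high-score cells in every library and 2 lower, where 28.3% of all 586 amplicons were higher and 33.4% lower. With native included these were 63 and 1 members, against 18.3 and 27% of all amplicons. AMPL371732 was the one member lower in all 4, with 34.0 and 65.1% in replicate mouse 1 and 54.1 and 57.9% in main mouse 3.

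**Figure D5:**
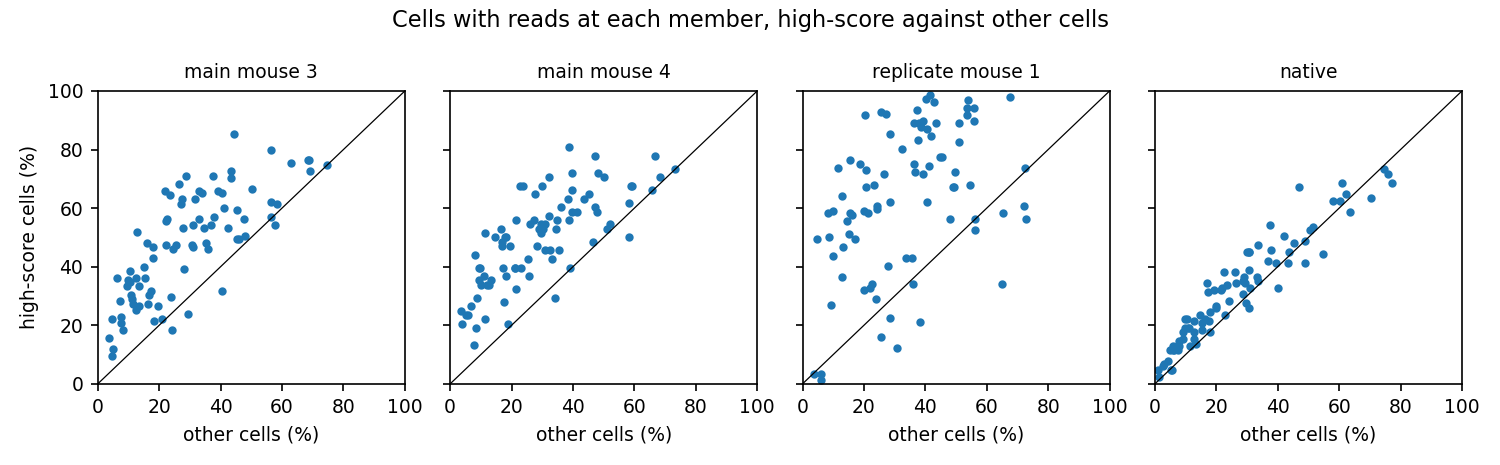
Share of cells with reads (percent) at each member in high-score cells (vertical; highest 5% of Sca-1 plus CD150 minus CD48) against the other cells (horizontal) of 4 marrow libraries; the line marks equal shares. In replicate mouse 1 AMPL355412 lies at 92.9 against 25.5%, while points of native marrow stay near the line.

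Every blood library held cells with at least 55 members, a limit below the 68 to 82 of most endothelial cells, and few of these had the mirror pattern of endothelium. The 95th percentile of members per cell was at most 67 outside endothelium, in old 2. The share of cells with at least 55 members was 0.380% in native marrow, 0.863 to 2.51% in main mice, 7.74 and 7.48% in replicate mice 1 and 2, 1.87 and 4.18% in young 1 and 2, and 2.37 and 18.2% in old 1 and 2. In old 2 the share was 27.1% at a limit of 50 members and 11.3% at 60, and 8.27% of its cells lay within 2 members of the limit of 55. In these cells the median number of mirror amplicons stayed at 64 to 86 of 90 in the 15 libraries, where endothelium had 19. Cells with at least 55 members and at most 40 mirror amplicons numbered from 0 to 8 in each of the 15 libraries, the 8 in lung myeloid cells. Cells high in members also had more reads, with a median of 79171 against 46469 in old 2. After thinning, old 2 had 8.87% of such cells and the other 14 had at most 3.27%. Doublets were not called, and the part of depth and doublets in these counts was not tested.

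AMPL388255 marked different shares of these cells. It was read in 50 to 84.4% of cells with at least 55 members in the 4 main mice, in 68.5% in the transplant and in 6.90% in old 2. In all other cells of the 15 libraries it was read in 0.747 to 2.19%. Cells read at AMPL388255 had a median of 84 UMI of CD34 in main mouse 3 against 3 in the others, and 39.5 UMI of ESAM against 2. In main mouse 4 CD34 was 45.5 against 5, and in replicate mouse 1 80.5 against 3. Total UMI was also higher in these cells, 526.5 against 210 in main mouse 3 and 851.5 against 292 in replicate mouse 1. With CD34, the mean r of AMPL388255 was 0.232 (adjusted p = 0.00130, limma), with r from 0.183 to 0.265. The median of mirror amplicons in cells read at AMPL388255 was 65 to 70 in these 3 libraries.

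The age comparison asked which amplicons differ between old and young native marrow, 2 libraries each. AMPL371788 was higher in old marrow, with 14.6 and 30.1% in old 1 and 2 against 5.35 and 9.18% in young 1 and 2 (log odds 1.27 ± 0.335, SE; adjusted p = 0.0110, edgeR). AMPL388807 was higher as well, with 6.09 and 18.1% against 3.20 and 4.56% (log odds 1.10 ± 0.324; adjusted p = 0.0288, edgeR). The groups did not overlap at either member. Of 84 members tested, 2 were higher and none lower, while of all 579 amplicons 0.864% were higher and 1.9% lower. The median log odds was 0.235 over members and 0.132 over all amplicons. Both calls were lost with at least 5 reads per cell (adjusted p = 0.413 for AMPL371788 and 0.564 for AMPL388807, edgeR), with at least 10 reads and on summed reads with TMM scaling, and AMPL388807 also after thinning (adjusted p = 0.0686, edgeR). Without old 1, 21 members were higher, and without old 2, young 1 or young 2 none was called. Old 2 was the highest of the 4 libraries at 63 of the 85 members and at 349 of all 663 amplicons. Its median member share was 41.7%, against 29.1% in old 1 and 27.6 and 32.3% in young 1 and 2. Old 2 was also the deepest of the 4, with 50356 reads in its median cell. Old 1 had 29540 by the same measure, young 1 had 28568.5 and young 2 had 27421. Age and depth are therefore not separated where old 2 drives the difference.

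Replicate LARRY marrow had higher shares than main LARRY marrow at many members. Of 85 members 46 were higher and 1 lower, close in direction to all 596 amplicons, of which 30.7% were higher and 0.503% lower. The median log odds was 0.520 over members and 0.466 over all amplicons, so the panel as a whole was shifted too. When the median log odds of each library was set equal, 8 members were higher and 2 lower. AMPL355663 had 28.5 and 45.7% in replicate mice 1 and 2 and 10.7 to 12.2% in the main mice (log odds 1.48 ± 0.219; adjusted p = 0.0113, edgeR). AMPL371741 had 35.9 and 35.3% against 12.8 to 17.7% (log odds 1.13 ± 0.156; adjusted p = 0.0113, edgeR). AMPL355970 was lower, with 53.9 and 53.1% against 66.3 to 69.3% (log odds -0.594 ± 0.115; adjusted p = 0.0137, edgeR). Without replicate mouse 2 no member was called, without main mouse 2 28 were and without main mouse 3 31 were. With the replicate number as a block 14 were higher and none lower. With at least 5 reads per cell 9 were higher and 1 lower, and with at least 10 reads none was called. Median depth was 60095 and 64337 reads per cell in replicate mice 1 and 2 and 45003.5 to 89971 in the main mice, so it overlapped between the groups.

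Native marrow, 2 of whose 5 libraries are from old marrow, was compared with LARRY marrow. Of 85 members 2 were higher and 2 lower in the 5 native libraries than in the 6 LARRY libraries, where 3.53% of all 595 amplicons were higher and 2.69% lower. AMPL365818 was at 48.2% ± 7.57 (SD, n = 5) in native and 24.5% ± 13.7 (n = 6) in LARRY marrow (log odds 1.16 ± 0.298; adjusted p = 0.0338, edgeR). AMPL371655 was at 21.3% ± 4.76 and 11.1% ± 2.30 (log odds 0.775 ± 0.190; adjusted p = 0.0303, edgeR). AMPL388409 was lower in native marrow, with 9.45 to 22.3% against 23.1 to 42.2% and no overlap (log odds -0.844 ± 0.223; adjusted p = 0.0359, edgeR). Under the alternatives AMPL365818 kept its direction but was called in 6 and not in 14. AMPL388409 was called in 9 and not in 11, and AMPL371655 in 14 and not in 6. The highest share of AMPL365818 outside endothelium was 53.4%, and 19.2% with at least 10 reads required. The experiment and the LARRY vector cannot be told apart. Without the 2 old libraries 1 member was called, and on summed reads 11 with TMM scaling (10 higher) and 15 with DESeq2 (10 higher). Leaving out main mouse 1, 2 or 3, young 1, young 2 or old 2 left no member called, leaving out native left 8, and leaving out replicate mouse 2, old 1 or main mouse 4 left 1, 1 and 2.

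Mature cells were compared with LARRY marrow over 3 libraries of different tissues. Median depth was 14693 to 24569 reads per cell in the mature libraries and 45003.5 to 89971 in LARRY marrow, so it did not overlap between the groups. AMPL365943 was higher in mature cells, with 53.5 to 73.1% against 33.0 to 40.6% (log odds 1.03 ± 0.233; adjusted p = 0.0124, edgeR). AMPL371552 was also higher, at 57.0 to 69.0% against 36.5 to 46.9% (log odds 0.871 ± 0.213; adjusted p = 0.0177, edgeR). On summed reads in place of cells its fold change turned, to -0.637 on the log2 scale with TMM scaling. AMPL355767 was lower, with 0.379 to 3.21% against 3.22 to 9.07% (log odds -1.56 ± 0.458; adjusted p = 0.0383, edgeR), and AMPL388770 fell from 36.4 to 66.6% in LARRY marrow to 11.03 to 36.6% in mature cells with a small overlap (log odds -1.28 ± 0.393; adjusted p = 0.0477, edgeR). In all 2 members were higher and 5 lower, where 5.72% of all 594 amplicons were higher and 8.42% lower. Without marrow and blood myeloid cells no member was called, without replicate mouse 1, replicate mouse 2 or the marrow and spleen immune library 3 were, and without main mouse 3 there were 4. With at least 10 reads 1 member was higher and 22 lower, and the share over all amplicons at this limit is not given here.

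The 3 mature libraries were unlike each other. In marrow and blood myeloid cells 59 of 85 members lay below the range of the 6 LARRY marrow libraries and 7 above, where 46.6% of all 586 amplicons that were not constitutive lay below and 13% above. Lung myeloid cells had 14 members below and 9 above (all amplicons 31.6% below and 13.8% above). Marrow and spleen immune cells had 20 below and 22 above (22% below and 32.4% above). The median member share was 15.5% in marrow and blood myeloid cells, 28.1% in lung myeloid cells and 25.8% in marrow and spleen immune cells. Each is 1 library, so these counts carry no test, and all 3 were shallower than every LARRY marrow library. Thinning to 10000 reads left out the shallower cells of lung myeloid, of which 4851 of 5855 stayed.

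Transplanted marrow lay inside the range of the other 11 marrow libraries at most members. Its share was below that range at 14 of 85 members and above it at none, where 16.6% of all 586 amplicons lay below and 9.39% above, so the share below was that of the panel. AMPL355639 was at 24.5%, below the 40.6 to 55.7% of the other marrow libraries. AMPL388299 was at 35.6%, below 48.5 to 72.6%. The count below the range was also 14 with at least 5 reads. The median number of members read per cell was 19 in the transplant and 20 to 28 in the other marrow libraries, and this 1 library allows no test.

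Reads per covered cell were higher at the members than at other amplicons in endothelium and mostly lower elsewhere. In endothelium a cell read at a member had a median of 33 reads there, against 19 at the other amplicons that were not constitutive, and 4.15% of such values were single reads. In the other 15 libraries the member median was below that of the other amplicons in 12, and the share of single reads was higher at members in all 15. In native marrow the medians were 20 and 28 reads, with 15.97 and 7.93% single reads, and in main mouse 3 they were 26 and 27 reads, with 11.8 and 7.63%. In lung myeloid cells, the shallowest library, they were 9 and 13 reads. At AMPL388255 a positive cell had a median of 28 reads in endothelium and from 4 in lung myeloid cells to 37.5 in main mouse 1, and 18.4% of positive lung myeloid cells rested on a single read.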

How the data were processed

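The authors deposited raw counts of scTAM-seq reads for each cell and amplicon, and counts of antibody UMI, per the file headers. Reads were placed on mm10, per the submitters' processing notes. Not given in the sources used here: aligner, cell caller, cell filters. The members, lists and tests were chosen with earlier results of these data known.

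A minimum of 1 read in a cell was taken as methylated. Doublets were not called. Values of some features are not reported here. Members are named by a rule: the 6 largest gaps, the 2 highest and 2 lowest marrow means, the amplicons nearest the threshold, up to 2 called members each way per comparison, and the 2 farthest from the marrow range in the transplant. Where no cell is read, the share may still reach 0.0886% in the smallest library and 0.0298% in the largest. Intervals cover counting error only.

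Groups came from the sample titles, and libraries were the replicates. Nothing says that all libraries came from separate animals, so p-values measure the spread between libraries. Comparisons used edgeR 4.0.16 (R 4.3.3) with its quasi-likelihood F-test on the numbers of positive and negative cells, an intercept per library, amplicons with a mean share of 2 to 98%, natural log odds and Benjamini-Hochberg adjustment at 0.05. Protein association used cells with at least 100 UMI, ranks of centred log ratios and limma 3.58.1 on Fisher z values of pairs present in at least 3 libraries. Both tests were tested on simulated data. DESeq2 1.42.0, limma, other read minimums, thinning to 10000 reads, no filter, another scaling and leaving out each library were alternatives. The leave-out of cells with the most amplicons in the protein test, the leave-out of 1 of 3 libraries for ESAM, CD27 and CD201, the score of Sca-1, CD150 and CD48 and the limits of 50, 55 and 60 members per cell were chosen after seeing the data.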

Additional observations from a re-analysis of the deposited data

Results flagged for a closer look

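The spread of libraries within a set was checked for 28 quantities (26 named members, the median number of members per cell and the share of cells with at least 55 members) in 3 sets, which made 84 checks. A library was singled out where its distance to the nearest other library, as a part of the range, passed Dixon's 95% limit, which chance passes in about 1 in 20 sets. In all 9 were singled out, 4 of them for old 2. Among native marrow libraries, old 2 had 18.2% of cells with at least 55 members (others 0.380 to 4.18%), 18.2% at AMPL355730 (others 5.41 to 8.38%), 18.1% at AMPL388807 (others 1.495 to 6.09%) and 34.5% at AMPL355663 (others 16.2 to 19.2%). Young 2 had 23.9% at AMPL365898 (others 6.47 to 9.81%). The native library had 5.06% at AMPL355742 (others 1.68 to 2.32%) and 76.0% at AMPL388551 (others 57.4 to 62.6%).

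Among LARRY marrow libraries, replicate mouse 1 had 51.6% at AMPL365818 (others 14.4 to 24.2%). Main mouse 2 had a median of 20 members per cell where the other 3 main mice had 21, a difference of a single amplicon.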

How the results depend on the processing

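Counts of called members depended on the processing and on single libraries. Shares over all amplicons are not given for the alternatives here or in the sections above. Their counts therefore do not set the members apart from the panel. Over the whole panel, 77 to 90 amplicons met the rule under other read minimums, after thinning and without single libraries. Without the cells with the most amplicons 87 met it, and 114 with a gap of 10 points and 63 with 30 points. Of the 85 members themselves, 80 still met it with at least 2 reads, 71 with at least 5 and 65 with at least 10. After thinning 81 of them did. Old against young called 2 members, and 0 with at least 5 reads, 0 with at least 10 reads, 1 after thinning, 5 with equal medians, 0 on summed reads with TMM, and 0 to 21 with single libraries left out. Replicate against main called 47, and 10 with at least 5 reads, 0 with at least 10, 10 with equal medians, 0 on summed reads with TMM, 14 with DESeq2 and 0 to 49 with single libraries left out. Native against LARRY marrow called 4, and 2 with at least 5 reads, 1 without the old libraries, 11 and 15 on summed reads with TMM and DESeq2, and 0 to 8 with single libraries left out. Mature against LARRY marrow called 7, and 17 and 23 with at least 5 and 10 reads, 18 with equal medians, 3 without the marrow and spleen immune library, 2 and 15 on summed reads with TMM and DESeq2, and 0 to 8 with single libraries left out. AMPL371552 turned to -0.637 and -0.636 (log2) on summed reads with TMM and DESeq2. The cause of these changes was not tested.

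With the replicate block, replicate against main called 14 members and old against young 2. Same-numbered libraries of replicate and main mice deviated in opposite directions (r = -0.181 and -0.359 over amplicons), and those of old and young by r = 0.114, so the numbers are not shown to pair animals.

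With single libraries left out, CD48 was negative at 24 to 72 members, CD150 positive at 9 to 50, Sca-1 positive at 17 to 55 and c-Kit negative at 12 to 56. For proteins measured in 3 libraries, leaving out each of these (added after seeing the data) gave ESAM positive at 61 to 77, CD27 negative at 23 to 56 and CD201 positive at 2 to 21. With no minimum of UMI, CD150 was positive at 27 members, c-Kit negative at 25 and CD201 positive at 4. With total protein as a covariate, c-Kit was negative at 26, CD27 negative at 29 and CD201 positive at 64. ESAM was positive at 59 to 72 members and CD48 negative at 45 to 63 under the alternatives that kept all libraries. Endothelial cells with at least 55 members fell to 95.4% with at least 5 reads per member. The shallowest library was lung myeloid, with a median of 14693 reads per cell.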
